A study of Mus musculus with 3 samples.

Results

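The genes described here are 44 genes of autophagy and of mTORC1 signalling, chosen by symbol as named members of these pathways with no threshold on their levels, and all 44 were matched to 1 gene each of the 22698 genes in the files. In autophagy a membrane grows around part of the cytoplasm, closes and fuses with the lysosome, where the contents are broken down. The ULK1 kinase complex starts the process, a class III PI3-kinase complex marks the membrane with the lipid PI3P, WIPI proteins bind that lipid, and conjugation enzymes attach ATG8 proteins such as LC3 and GABARAP to the membrane, where receptors such as p62 dock cargo. mTORC1 is the kinase complex that holds autophagy back when nutrients are plentiful, and it is brought to the lysosome by RAG GTPases and restrained by the TSC complex. In pigment cells these genes are of interest because melanosomes, the organelles that make melanin, are related to lysosomes and because autophagy proteins take part in melanosome formation and turnover.

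The measurements were RNA-seq profiles of melan-a cells, an immortalized line of mouse melanocytes, in 3 samples numbered 1, 3 and 4. All 3 had the same C57BL/6J strain background, were labelled as melanocytes from Ink4a-ARF-/- mice and received no treatment. The cells grew in RPMI medium with 10% fetal bovine serum, 200 nM of the phorbol ester 12-O-tetradecanoylphorbol 13-acetate and 200 pM cholera toxin, so every level below was measured with both agents present. There was 1 condition and 1 cell line, so no level can be set against a treated, starved or non-pigmented sample, and the spread between samples may be technical. Values are FPKM, reads scaled to gene length in kilobases and to library size, as deposited, and 3 values in a row always stand for replicates 1, 3 and 4.

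The cell type and depth were checked first. All 8 melanocyte markers (Tyr, Tyrp1, Dct, Pmel, Mlana, Sox10, Mitf and Slc45a2) were at or above 1 FPKM, with summed levels of 6604, 5779 and 6617 FPKM. None of 4 keratinocyte markers reached 1 FPKM (summed 0.51, 0.36 and 0.7, with Krt1 at 0), 1 of 5 fibroblast markers did (summed 1.63, 1.85 and 1.52, with Lum at 0), none of 3 endothelial markers exceeded 0.02 FPKM, and all 4 leukocyte markers were listed at 0. These lists do not cover every lineage, so they do not show that markers of all other cell types were low. Cdkn2a, the gene of the Ink4a and ARF products, was at 19.2, 16.5 and 24.3 FPKM although the label reads Ink4a-ARF-/-. A per-gene value does not show which exons the reads came from, so it checks nothing about the deletion. The files hold no read counts, but low values fell on steps of whole reads. These steps gave estimated scaled library sizes of 53.9, 47.0 and 66.3 in units of 1000000. The values are named as scaled between libraries (TMM), so these sizes carry that scaling and are not numbers of sequenced reads. The member with the fewest reads, Atg10 in replicate 3, then had about 90.7, so none of the 44 rested on a handful of reads. These read numbers cover counting error only.

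All 44 genes were expressed at or above 1 FPKM in every replicate, against 44.1% of all genes in the files at that threshold. At 5 FPKM the count was 33 of 44, for which the share of all genes was not computed. Their median level was 10.9 FPKM, beside 0.277 over all genes and 11.2 over the 10011 genes that passed the same minimum. Among those expressed genes 20 members lay above the median and 24 below it, so the list sat in the middle of the expressed range. The mean levels ran from 1.55 FPKM for Rragd to 450.0 for Gabarap, a 290-fold range. Most of the list was close together, however, with 37 genes between 2 and 50 FPKM. The 4 above 50 were Gabarap, Map1lc3b and Gabarapl1 of the ATG8 genes and Sqstm1 of the cargo receptors. The ranges of Gabarap and Sqstm1 overlapped. With reads divided by the longest coding transcript, Sqstm1 was the higher of them, at 675 against 614 FPKM. The other genes of the ATG8 and receptor groups lay below 50, from Optn at 6.76 to Map1lc3a at 49.7. The 3 below 2 were Rragd, Atg10 and Atg16l2, with overlapping ranges, so the lowest gene was not separated. Each is either a paralog of a more abundant member or, for Atg10, an E2-type enzyme of the conjugation step.

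**Figure D1:**
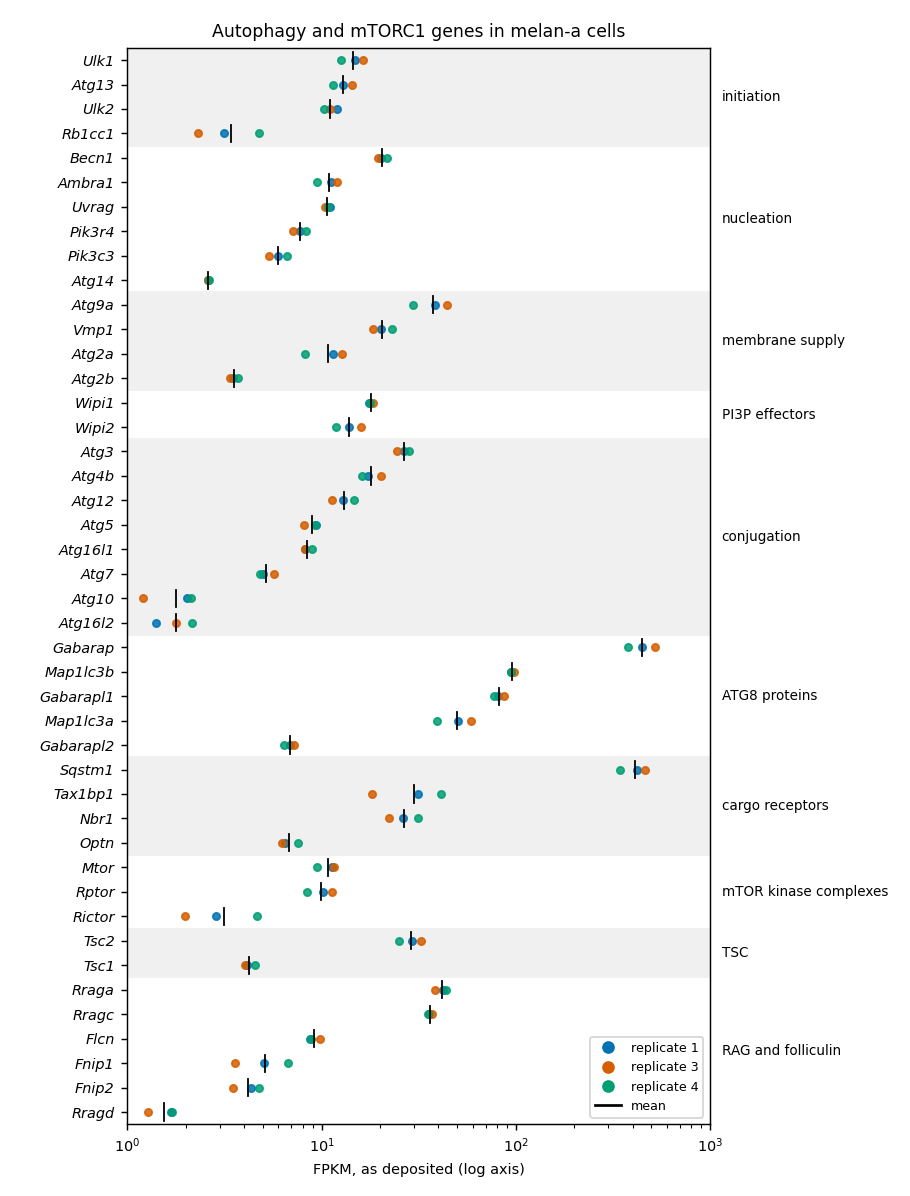
FPKM of the 44 genes (log axis) in melan-a replicates 1, 3 and 4, grouped by step of the pathway and sorted by mean within each step; points are replicates and black bars are means. Gabarap (450.0) and Sqstm1 (410.0) stand above all other genes, and Rragd, Atg10 and Atg16l2 are the 3 genes with means under 2.

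Genes of the initiation complex were moderately and evenly expressed, except for the scaffold. Ulk1, the protein kinase that starts autophagy and is a direct mTORC1 substrate, was at 14.8, 16.4 and 12.6 FPKM. Atg13, the adaptor that links the kinase to the complex, was at 12.8, 14.4 and 11.5 FPKM, and its range overlapped that of Ulk1. Ulk2, the second ULK kinase, was at 12.0, 11.1 and 10.3 FPKM. Ulk1 exceeded Ulk2 in 3 of 3 replicates with a log2 ratio of 0.39 ± 0.16 (SD, n = 3), while Ulk2 was not separated from Atg13. Rb1cc1, which encodes the scaffold FIP200, was lowest at 3.14, 2.31 and 4.77 FPKM, with no overlap with the other 3 genes. Its replicates differed 2.06-fold, the widest spread in this step. Atg101, a further subunit outside the list, was at 16.8, 19.8 and 15.7 FPKM.

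The PI3-kinase genes showed a wider order. Becn1 (Beclin 1, the regulatory core subunit) led at 20.4, 19.6 and 21.7 FPKM. The lipid kinase itself, Pik3c3 (VPS34), was at 5.94, 5.39 and 6.62 FPKM, and its anchoring subunit Pik3r4 (VPS15) at 7.76, 7.1 and 8.27 FPKM. Beclin 1 mRNA was therefore above that of both other core subunits in every replicate. Of the joined Becn1 exons 43.9% overlap exons of Cntd1 on the opposite strand; the library kit kept strand, but the strand setting of the counting is not given in the sources used here. Atg14 and Uvrag encode alternative subunits that direct the complex to autophagosome formation or to endosomal traffic. Atg14 was at 2.61, 2.61 and 2.62 FPKM and Uvrag at 11.0, 10.4 and 10.8 FPKM. Uvrag was higher in 3 of 3 replicates, and the log2 ratio of Atg14 to Uvrag, -2.0 ± 0.05 (SD, n = 3), was among the steadiest of the pairs. Ambra1, a Beclin 1 regulator, was at 11.2, 12.1 and 9.52 FPKM, above Uvrag in 2 of 3 replicates and not separated from it. Rubcn (Rubicon), an inhibitor that binds the UVRAG form, was at 20.8, 24.2 and 19.3 FPKM, and Nrbf2, a subunit of the ATG14 form, at 3.39, 3.31 and 3.95 FPKM.

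Among the genes of membrane supply, Atg9a, the scramblase on the vesicles that seed the membrane, was highest at 38.6, 44.5 and 29.5 FPKM. Its paralog Atg9b, outside the list, was at 0.07, 0.02 and 0.05 FPKM, so Atg9a carried nearly all of the ATG9 signal. The lipid transfer proteins ATG2A and ATG2B were unequal too. Atg2a was at 11.5, 12.7 and 8.26 FPKM and Atg2b at 3.5, 3.38 and 3.72 FPKM, a log2 ratio of 1.56 ± 0.39 (SD, n = 3). Vmp1, an endoplasmic reticulum scramblase, was at 20.2, 18.5 and 23.1 FPKM. No ranges overlapped between neighbours in this step.

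The WIPI genes encode the propeller-shaped proteins that bind PI3P on the growing membrane. Wipi1 (ENSMUSG00000041895, chr11:109434645-109473281 on mm9, minus strand) was at 17.5, 18.4 and 17.7 FPKM, a mean of 17.9 ± 0.492 (SD, n = 3). Wipi2 (ENSMUSG00000029578, chr5:143105496-143146542, plus strand) was at 13.8, 15.9 and 11.9 FPKM, a mean of 13.9 ± 1.99 (SD, n = 3). Wipi1 was thus higher in 3 of 3 replicates and the ranges did not overlap. The log2 ratio was 0.34, 0.21 and 0.57, on average 0.38 ± 0.18 (SD, n = 3), so the margin was small beside those of most other pairs. The order also depended on the length by which reads were divided. With FPKM not divided by length the log2 ratio turned to -0.49, since the joined exons span 4410 bases in Wipi1 and 8041 in Wipi2, whereas with the length of the longest coding transcript it rose to 0.85. The GC contents of these genes, 51.0% and 51.8%, were nearly alike, and the ratio had the same SD of 0.18 after the levels were centred on genes of similar GC content. The other members of the propeller family were Wdr45b (WIPI3) at 21.2, 23.8 and 20.9 FPKM and Wdr45 (WIPI4) at 5.41, 6.03 and 6.58 FPKM. Wdr45b was above both listed WIPI genes in every replicate.

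The conjugation genes ran from 26.5 FPKM down to 1.79 FPKM. Atg3, the E2-type enzyme that transfers ATG8 proteins to lipid, was highest at 26.7, 24.6 and 28.4 FPKM. Atg4b, the main protease that trims ATG8 proteins, was at 17.4, 20.3 and 16.2 FPKM, and Atg7, the E1-type enzyme that activates both ATG8 proteins and ATG12, at 5.02, 5.66 and 4.81 FPKM. Atg3 and Atg4b were thus above Atg7 in every replicate. Atg12, the ubiquitin-like protein that becomes joined to ATG5, was at 12.9, 11.3 and 14.6 FPKM and Atg5 at 9.33, 8.09 and 9.25 FPKM. Atg16l1, which completes the ATG12-ATG5 ligase, was at 8.19, 8.22 and 8.96 FPKM and was not separated from Atg5. Atg10, the E2-type enzyme for ATG12, was low at 2.03, 1.2 and 2.13 FPKM. Atg16l2, the ATG16L1 paralog, was similarly low at 1.41, 1.79 and 2.16 FPKM and overlapped Atg10. Atg16l1 exceeded Atg16l2 in 3 of 3 replicates with a log2 ratio of 2.20 ± 0.23 (SD, n = 3). Of the other ATG4 proteases Atg4a was at 21.4, 19.2 and 25.4 FPKM, Atg4d at 7.09, 8.3 and 5.82 and Atg4c at 2.91, 2.9 and 3.54, with Atg4a above Atg4b in 2 of 3 replicates.

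Gabarap dominated the ATG8 genes. It (ENSMUSG00000018567, chr11:69804645-69808453, plus strand) was at 447, 524 and 378 FPKM, which made up 65.6% ± 2.02 (SD, n = 3) of the summed FPKM of the 5 genes. Map1lc3b, which encodes LC3B, the usual marker protein of autophagosomes, was at 94.6, 98.6 and 94.8 FPKM. Gabarapl1 followed at 80.9, 87.0 and 76.9 FPKM and Map1lc3a (LC3A) at 50.7, 59.2 and 39.1 FPKM. Gabarapl2 (GATE-16) was far below these at 6.87, 7.24 and 6.42 FPKM. No neighbours in this order overlapped. Gabarap exceeded Gabarapl1 by a log2 ratio of 2.45 ± 0.15 (SD, n = 3), and the log2 ratio of Map1lc3b to Gabarap was -2.21 ± 0.21. The log2 ratio of Gabarap to Gabarapl2 was 6.01 ± 0.15 and that of Gabarapl1 to Gabarapl2 was 3.56 ± 0.02. Map1lc3a was below Map1lc3b by a log2 ratio of -0.97 ± 0.28. No run of identical bases longer than 17 was shared by the coding transcripts of any compared pair of ATG8 genes. That length does not measure how similar the sequences are as a whole.

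Gabarapl2 and Map1lc3b had near-identical sequence copies elsewhere in the genome, apart from their paralogs. On mm9, 55.2% of the bases of the Gabarapl2 coding transcript had a copy of at least 97% identity over at least 75 bases. The longest aligned 925 bases at 99.7% identity, at chr5:23623621-23624545, where a pseudogene, Gm3724, is annotated inside the gene Klhl7. For Map1lc3b the share was 39.5%, with a 677-base match of 99.6% identity at chr14:48698808-48699484. The annotation there gives a gene, Gm6055 (ENSMUSG00000062081), which the files list separately. The first 240 bases of the coding sequences are shown because reads from such stretches can hardly be assigned to 1 place, and capitals in the copies mark bases that differ from the gene above them.
Gabarapl2, coding bases 1 to 240: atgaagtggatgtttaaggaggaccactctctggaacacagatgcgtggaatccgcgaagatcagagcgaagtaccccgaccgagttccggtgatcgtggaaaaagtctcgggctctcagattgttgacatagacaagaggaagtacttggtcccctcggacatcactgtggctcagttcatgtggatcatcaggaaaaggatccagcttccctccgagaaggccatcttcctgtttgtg
its copy at chr5:23624245-23624484 (mm9, minus strand), 1 differing base: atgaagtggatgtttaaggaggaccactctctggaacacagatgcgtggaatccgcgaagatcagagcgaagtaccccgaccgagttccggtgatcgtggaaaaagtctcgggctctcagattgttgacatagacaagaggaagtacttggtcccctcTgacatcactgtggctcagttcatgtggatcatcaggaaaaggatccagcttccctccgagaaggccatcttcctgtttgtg
Map1lc3b, coding bases 1 to 240: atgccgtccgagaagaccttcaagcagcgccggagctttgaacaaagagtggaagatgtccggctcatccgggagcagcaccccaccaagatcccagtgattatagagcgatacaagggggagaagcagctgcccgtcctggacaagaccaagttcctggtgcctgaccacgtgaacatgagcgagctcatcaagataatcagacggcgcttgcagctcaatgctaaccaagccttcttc
its copy Gm6055 at chr14:48699188-48699427 (mm9, minus strand), 1 differing base: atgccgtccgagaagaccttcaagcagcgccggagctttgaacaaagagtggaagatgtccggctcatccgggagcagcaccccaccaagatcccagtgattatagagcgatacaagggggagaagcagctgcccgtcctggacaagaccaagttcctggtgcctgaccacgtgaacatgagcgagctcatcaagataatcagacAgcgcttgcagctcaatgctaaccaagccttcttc
its copy Gm6054 at chr5:148220558-148220797 (mm9, plus strand), 6 differing bases: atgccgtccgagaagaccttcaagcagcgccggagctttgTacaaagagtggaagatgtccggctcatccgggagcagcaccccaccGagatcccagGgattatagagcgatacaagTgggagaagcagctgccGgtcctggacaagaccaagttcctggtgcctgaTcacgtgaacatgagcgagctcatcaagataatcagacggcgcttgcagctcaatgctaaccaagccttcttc

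Gm6055 itself was listed at 33.5, 39.2 and 33.7 FPKM, and Map1lc3b exceeded it between 2.51-fold and 2.83-fold. How reads that match several places were treated is not given in the sources used here. Adding the estimated reads of Gm6055 to Map1lc3b raised its mean from 96 to 110 FPKM. Dividing instead by the coding transcript without its copied bases, as if no read from those bases had been counted, gave 159 FPKM for Map1lc3b and 21.2 for Gabarapl2. The order of the 5 genes was the same under each of the 3 lengths, with Gabarapl2 last. For Atg7, 49.6% of the coding transcript had a copy elsewhere in the genome, and the same calculation gave 10.6 FPKM in place of 5.34. The longest matches of Atg7, 203 and 200 bases, lay on a scaffold not placed on a chromosome. Outside these 3 genes the largest copied share was 8.5%, in Ulk1, and 7.9% in Vmp1. The part of these copies in the deposited levels was not tested. By annotation, 1 member, Vmp1, shared exon bases with a gene of its own strand (Mir21, 2.4% of its bases), and 7 did with genes of the opposite strand.

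**Figure D2:**
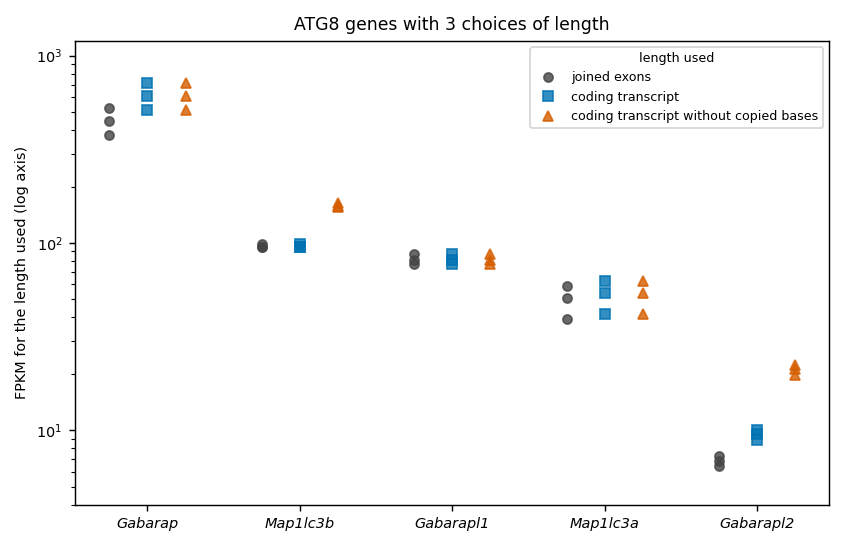
Level of the 5 ATG8 genes (log axis) when their reads are divided by the joined exons of the gene, by the longest coding transcript, or by that transcript without bases copied elsewhere in the genome; each point is a replicate. Gabarapl2 moves from 6.84 to 21.2 and Map1lc3b from 96 to 159, and Gabarap stays highest and Gabarapl2 lowest.

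The cargo receptors were as uneven as the ATG8 genes. Sqstm1 (ENSMUSG00000015837, chr11:50012868-50024329, minus strand), which encodes p62, the receptor for ubiquitinated cargo, was at 423, 461 and 346 FPKM. An antisense gene, 3010026O09Rik, overlaps 17.3% of its exon bases. Sqstm1 made up 86.3% ± 4.82 (SD, n = 3) of the summed FPKM of the 4 receptors. Nbr1, a p62-related receptor, was at 26.3, 22.3 and 31.5 FPKM. Tax1bp1 was at 31.3, 18.1 and 41.0 FPKM and Optn (optineurin) at 6.47, 6.29 and 7.52 FPKM. Tax1bp1 and Nbr1 were not separated, since Tax1bp1 was higher in 2 of 3 replicates and its own replicates differed 2.26-fold. Among receptors outside the list, Bnip3l (NIX), a mitophagy receptor, was at 19.5, 17.5 and 21.8 FPKM, its relative Bnip3 at 12.9, 14 and 14.5, and Ncoa4, the ferritin receptor, at 2, 1.46 and 1.9. Vamp8, a SNARE of autophagosome fusion, was the highest of all other pathway genes at 196, 218 and 182 FPKM.

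Of the mTOR kinase genes, Mtor, the kinase shared by both mTOR complexes, was at 11.3, 11.6 and 9.44 FPKM. Rptor (Raptor), the scaffold that defines mTORC1, was at 10.2, 11.3 and 8.42 FPKM and was not separated from Mtor. Rictor, the scaffold that defines mTORC2, was at 2.87, 1.98 and 4.63 FPKM, below both in 3 of 3 replicates. The ratio of Rptor to Rictor was unsteady, at 3.56, 5.71 and 1.82, a log2 ratio of 1.70 ± 0.81 (SD, n = 3). After centring on genes of similar GC content it ran from 2.31 to 4.5. The smaller subunits outside the list were Mlst8, common to both complexes, at 9.19, 9.42 and 9 FPKM, Mapkap1 (SIN1) of mTORC2 at 17.8, 16.9 and 17.3 and the mTORC1 inhibitor Akt1s1 (PRAS40) at 31.9, 38.4 and 21.9. Deptor, an inhibitor of both complexes, was at 12.5, 11.4 and 16.7 FPKM. Eif4ebp1, the translational repressor that mTORC1 phosphorylates, was the most abundant substrate gene listed at 130, 147 and 109 FPKM.

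The TSC genes encode the brake on mTORC1, a GTPase-activating complex for RHEB. Tsc2, the catalytic subunit, was at 29.3, 32.4 and 25 FPKM, and its stabilizing partner Tsc1 was at 4.13, 4.02 and 4.53 FPKM. Tsc2 was higher in 3 of 3 replicates, with a log2 ratio of Tsc1 to Tsc2 of -2.74 ± 0.27 (SD, n = 3). Tbc1d7, the third subunit, was at 17.1, 16.7 and 16.5 FPKM, between both. Rheb, the GTPase that activates mTORC1, was at 28.9, 26.8 and 30.1 FPKM, and its relative Rhebl1 was at 0.66, 0.58 and 0.93.

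The RAG GTPases work as pairs of RAGA or RAGB with RAGC or RAGD, and within each pair of paralogs 1 gene carried most of the signal. Rraga (ENSMUSG00000070934, chr4:86221577-86223185 on mm9, plus strand) was at 42.4, 38.5 and 43.5 FPKM. Rragb, its paralog outside the list, was at 0.03 in all 3 replicates, an estimated 3.18 to 4.49 reads. With so few reads no fold is given for this pair, but 3 reads correspond to at most 0.0283 FPKM for Rragb, and Rraga was far above that in every replicate. Rragc (ENSMUSG00000028646, chr4:123594689-123614240, plus strand) was at 35.7, 37.2 and 35.2 FPKM. Rragd (ENSMUSG00000028278, chr4:33070012-33109155, plus strand) was at 1.68, 1.27 and 1.7 FPKM, the lowest mean of all 44 genes. Rragd was nevertheless well measured, with an estimated 309 to 583 reads. The ratio of Rragc to Rragd was 21.2, 29.3 and 20.7, a log2 ratio of 4.46 ± 0.26 (SD, n = 3). These paralogs shared at most 20 identical bases in a row, and 26 for Rraga and Rragb, so few reads could match both genes of a pair.

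Upstream sequence is printed for Rragc and Rragd, the listed paralogs furthest apart in level after Gabarap and Gabarapl2, and for Atg3, which held the most E-boxes. E-boxes (CACGTG, its own reverse complement) are the letters bound by MITF, TFEB and TFE3, which drive lysosomal and autophagy genes and were at 22.1, 7.14 and 28.7 FPKM on average, with Tfec at 0.167. GCCNNNGGC is the core bound by TFAP2 factors, among them TFAP2A, whose role in melanocytes the study addressed. Each line gives the 250 bases before the RefSeq start on GRCm38.p6, and capitals mark E-boxes and GCCNNNGGC matches.
Rragc, chr4:123917183-123917432 (plus strand): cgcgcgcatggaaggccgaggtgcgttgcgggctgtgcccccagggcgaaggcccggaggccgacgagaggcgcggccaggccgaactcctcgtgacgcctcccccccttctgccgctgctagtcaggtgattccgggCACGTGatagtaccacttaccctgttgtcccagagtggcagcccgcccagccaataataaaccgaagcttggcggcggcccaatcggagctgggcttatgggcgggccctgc
Rragd, chr4:32982748-32982997 (plus strand): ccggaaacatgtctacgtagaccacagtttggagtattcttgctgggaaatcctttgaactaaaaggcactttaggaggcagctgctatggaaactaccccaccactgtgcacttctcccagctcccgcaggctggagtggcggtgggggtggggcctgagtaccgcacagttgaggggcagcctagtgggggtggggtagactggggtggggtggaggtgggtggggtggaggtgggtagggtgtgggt
Atg3, chr16:45158579-45158828 (plus strand): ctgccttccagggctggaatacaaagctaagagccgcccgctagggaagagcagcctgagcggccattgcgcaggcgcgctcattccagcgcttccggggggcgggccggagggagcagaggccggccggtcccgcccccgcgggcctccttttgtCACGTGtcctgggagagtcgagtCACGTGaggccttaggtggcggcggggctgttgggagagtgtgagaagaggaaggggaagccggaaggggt

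In windows from 250 bases before to 50 bases after the start, searched on both strands, 6 of the 38 members with a RefSeq promoter held CACGTG (15.8%), against 8.09% of all promoters and 8.91% of those of protein-coding genes. They were Atg3 (at -94 and -71), Atg5 (-14), Atg7 (-132), Atg14 (-1), Rragc (-112) and Fnip1 (-75). The start used for Atg7 appears to lie inside the gene, judged from where other chromosome 6 members fall on mm9 and GRCm38. Its matches, here and below, may therefore not be at the gene's first annotated exon. The longer GTCACGTG, which contains an E-box, was in 3 (Atg3, Atg7 and Atg14; 7.89% against 2.55% of all promoters). The palindrome TCACGTGA, which also contains an E-box, was in Atg3 alone (2.63% against 1.12%), and the M-box TCATGTGA in none (0%, against 1.15%). GCCNNNGGC was in 13 members (34.2%, against 18.5% of all promoters and 22.2% of those of protein-coding genes), among them Wipi1, Wipi2, Rragc, Rragd, Map1lc3b and Gabarapl1. In Rragc, Rragd and Atg3, which is also among the 13, that match lay after the start, outside the printed bases. Members with CACGTG had a median of 7.03 FPKM and those without 11.0, while for GCCNNNGGC the medians were 17.9 and 10.7. These matches describe letters in a window and not binding, and no test was made. Rragc and Rragd each had a GCCNNNGGC match although their levels were far apart.

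The genes around the RAG proteins were expressed throughout. Flcn (folliculin), a GTPase-activating protein for RAGC and RAGD, was at 8.77, 9.83 and 8.78 FPKM. Its partners Fnip1 and Fnip2 were at 5.07, 3.58 and 6.71 and at 4.34, 3.48 and 4.75 FPKM. Fnip1 was higher in 3 of 3 replicates, with a log2 ratio of 0.25 ± 0.23 (SD, n = 3), but the ranges overlapped, so the 2 genes were not separated. The 5 subunits of the Ragulator complex, the lysosomal anchor of the RAG proteins, were higher than most listed genes. Lamtor1 was at 158, 190 and 137 FPKM, Lamtor4 at 67.4, 77.2 and 60.1, Lamtor2 at 64.6, 67.4 and 67.2, Lamtor5 at 29.9, 31.3 and 30.9 and Lamtor3 at 21.1, 17.6 and 23.9. Of the GATOR1 genes, which switch RAGA and RAGB off, Nprl2 averaged 11.3 FPKM, Nprl3 11.9 and Depdc5 4.68.

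In all, 51 of 52 other pathway genes were matched, and 48 of the 51 were at or above 1 FPKM in every replicate. The 3 that were not were Rragb, Atg9b and Rhebl1, each of which has a paralog with a higher level (Rraga, Atg9a and Rheb). The median of the 51 was 13.8 FPKM, in a range from 0.03 for Rragb to 199 for Vamp8.

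Altogether 15 pairs were compared, 12 of paralogs and 3 of partners that are not paralogs. The same gene was higher in 3 of 3 replicates in all 15, and in 14 the replicate ranges did not overlap, the exception being Fnip1 and Fnip2. An exact two-sided permutation test that flips the sign of 3 log2 ratios cannot give less than p = 0.25. That was the p of every pair in this test, so none could be called significant. Within the steps 26 of 34 neighbours in the order of levels had ranges that did not overlap. With reads divided by the longest coding transcript the order of means turned for 5 of the 34, including Mtor (12.7) and Rptor (20.4), Rraga (41.5) and Rragc (46.4), Pik3r4 (7.71) and Pik3c3 (8.2), and Atg5 (8.94) and Atg16l1 (26.3). The fifth was Ulk1 (14.6) and Atg13 (15.6).

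**Figure D3:**
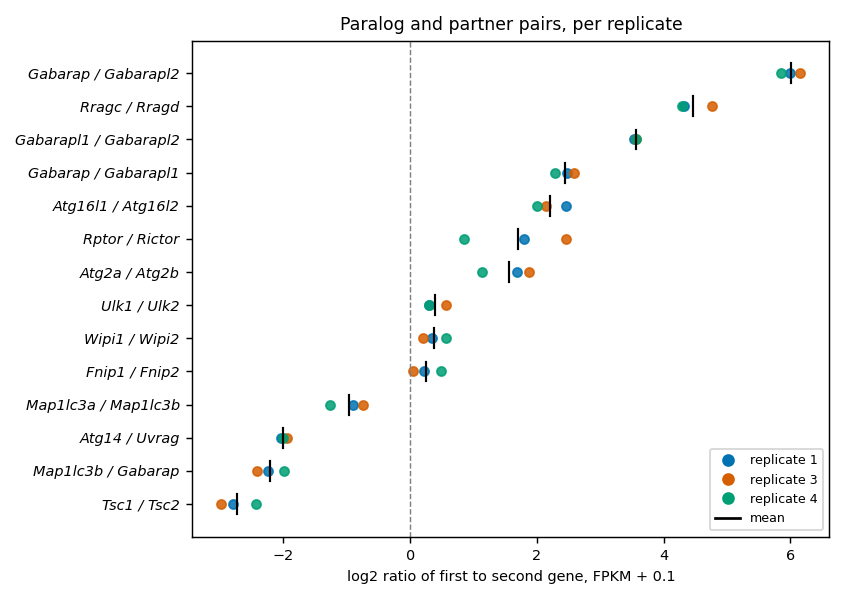
Log2 ratio of the first to the second gene (FPKM plus 0.1) in each replicate for 14 gene pairs, without Rraga and Rragb, since Rragb had too few reads; black bars are means and the dashed line marks equal levels. Every pair lies on 1 side of the line in all 3 replicates, with Rptor / Rictor the widest (SD 0.81) and Gabarapl1 / Gabarapl2 the narrowest (SD 0.02). After centring on genes of similar GC content these SDs were 0.49 and 0.13, and Map1lc3a / Map1lc3b was the narrowest (0.02).

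Replicates agreed closely for most of the 44 genes. The median coefficient of variation was 11.2%, against 11.4% over expressed genes. The highest replicate was over 1.5 times the lowest in 9 of 44 genes (20.5%), close to the 18.8% of expressed genes. These 9 were Rictor (2.34-fold), Tax1bp1 (2.26-fold), Rb1cc1 (2.06-fold), Fnip1 (1.87-fold), Atg10 (1.78-fold), Atg2a (1.54-fold), Atg16l2 (1.53-fold), Atg9a (1.51-fold) and Map1lc3a (1.51-fold). Just inside and outside that limit the members lay close together, with Nbr1 at 1.41-fold next below. The steadiest gene was Atg14, whose values differed by 0.01 FPKM.

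The direction of these differences followed base composition. The log2 ratio of replicate 3 to replicate 4 rose with the GC content of the joined exons, with Spearman's rho of 0.80 and Pearson's r of 0.83 across the 44 genes, and rho of 0.78 across 10007 expressed genes. Genes share the same 2 libraries and are not independent replicates, so this is a description with no p. The 21 members higher in replicate 3 had a median GC content of 52.7% and the 23 higher in replicate 4 had 46.7%. Rb1cc1 had the lowest GC content, 37.5%, and was lowest in replicate 3, whereas Map1lc3a had the highest, 63.6%, and was highest there. Rictor (42.5%), Tax1bp1 (40.8%), Fnip1 (38.9%) and Atg10 (40.8%) were likewise lowest in replicate 3, and Atg2a (58.6%) and Atg9a (57.8%) were highest in it. Atg16l2, at 55.7% GC, went the other way and was highest in replicate 4. When each replicate was centred on genes of similar GC content, the median coefficient of variation of the members fell to 7.0% and 3 genes stayed over 1.5-fold, Atg16l2 (1.74), Rictor (1.69) and Tax1bp1 (1.56). Over all expressed genes 5.74% were above that limit after centring. The labels name no batch that divides replicates 3 and 4, and the part of library preparation in these differences was not tested.

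**Figure D4:**
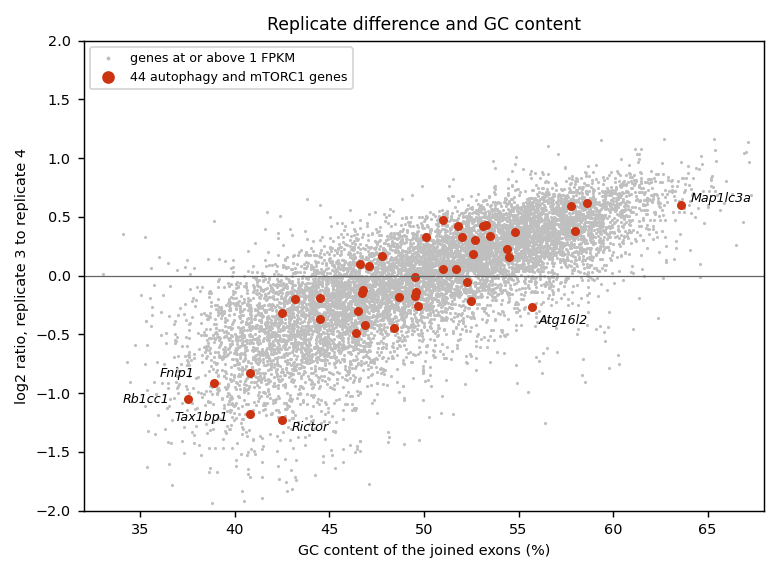
Log2 ratio of replicate 3 to replicate 4 against GC content (%) of the joined exons for the 44 genes (red) and for expressed genes (grey; a few lie beyond the axes). The red points rise with GC content like the grey ones (rho 0.80 and 0.78), with Rb1cc1 at 37.5% low and Map1lc3a at 63.6% high, and Atg16l2 lies below zero at 55.7%.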

How the data were processed

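Stranded mRNA libraries from 3 melan-a samples were sequenced. Per the study's methods and the submitters' processing notes, the authors trimmed 10 bases from each read, aligned reads to mm9 with STAR 2.3.0e, removed rRNA reads, counted reads per gene of Ensembl release 67 with HTSeq 0.5.3p3 and listed CASAVA 1.8.2, SAMtools and edgeR among the tools. The authors deposited FPKM values, named as scaled by TMM and rounded to 2 decimals. The gene length behind them is not given in the sources used here, and since FPKM are not counts no count test was run.

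Symbols were matched to gene IDs through mouse gene tables. Lengths, GC content and coordinates came from the mm9 annotation of Ensembl release 65, with joined exons as the gene length. Scaled library sizes were estimated from the steps between low FPKM values of 120 to 144 short genes with 1 transcript. The values of these genes then lay on average 0.044 to 0.065 reads from whole reads. In 12 to 15 genes with several transcripts this distance was 0.1 to 0.129, so read numbers of the other genes are approximate. The floor is the FPKM of 3 reads, 0.056, 0.064 and 0.045 for a gene of 1 kb. Ratios are log2(FPKM + 0.1), so those of low genes are understated. GC centring divided each gene by the median deviation of its replicate among genes in the same of 20 groups of GC content. Copies were sought with blastn 2.17.0 (at least 97% identity over 75 bases). Depth and ratio steps were tested on simulated data. Python 3.11.15, numpy 2.4.6, pandas 2.3.3, scipy 1.17.1 and matplotlib 3.10.9 were used.

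All 44 members are given with their 3 values. The rule for naming genes in full asked for the paralogs and partner pairs, the highest and lowest gene of each step and genes whose replicates differed over 1.5-fold, and the remaining members were added to it. The members, the other pathway genes and the markers were chosen with earlier results of these data known. Slc38a9 matched 2 gene IDs and was left out. Of the marker lists, 1 further list of another lineage is not reported here, so the check of cell type is incomplete. Alternatives tried were other thresholds, pseudocounts, lengths, rescaling to a sum of 1000000, GC centring and each replicate left out.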

Additional observations from a re-analysis of the deposited data

Results flagged for a closer look

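Gm6055, an annotated copy of Map1lc3b that is not among the 44 genes, was listed at a mean of 35.5 FPKM. This is a signal in a gene outside the comparisons, above the 0.0941 FPKM that 3 reads would give at most. With 3 replicates in 1 group, single samples were not tested for standing apart.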

How the results depend on the processing

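The count of 44 expressed genes fell to 33 at 5 FPKM. At 0.5 FPKM, on the mean, and without any 1 replicate it stayed at 44. Those settings could not lower it, because all 44 genes passed 1 FPKM in every replicate. The median level of 10.9 FPKM became 28.7 when each replicate was rescaled to a sum of 1000000, a change of unit, and 13.0 with the longest coding transcript as length, which was chosen after seeing the data, as were the levels without copied bases, with the reads of Gm6055 added and the median without Atg7, Gabarapl2 and Map1lc3b (10.9). The median coefficient of variation of 11.2% became 7.0% after GC centring and ran from 7.09% without replicate 4 to 15.1% without replicate 1 (7.79% without replicate 3). The log2 ratio of Wipi1 to Wipi2 turned to -0.49 when FPKM were not divided by length. Over all settings, 199 levels and 81 log2 ratios moved by less than 1 SD of the replicates. By more moved 74 levels (44 of them by rescaling) and 36 ratios, and no other ratio changed sign. Most of the small moves came from leaving out 1 replicate or, for levels, taking the median. With 3 replicates these settings cannot move a mean by 1 SD, so they tested nothing here. With the longest coding transcript, 23 levels moved by more and 21 by less. Without copied bases, 6 levels moved by more and 2 by less. The correlation with GC content was recomputed at 5 FPKM, whereas promoter GC was not used because every member had exon GC. The gene ratios were paired by library, but no paired comparison of conditions was possible because the series holds 1 group. Gene length, copies and the use of 3 samples of 1 line limit what these levels show.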
